A study of Mus musculus with 4 samples.

Results

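The splicing regulators described here are 10 RNA-binding proteins that set alternative exons in heart and skeletal muscle: Rbfox1, Rbfox2, Mbnl1, Mbnl2, Celf1, Celf2, Rbm20, Rbm24, Rbm38 and Rbpms. They were chosen by name, and each Ensembl identifier was matched to 1 of the 21552 genes in the count table. The alternative exons and splice sites listed under these genes took 106 of the 124326 entries in a second table of splicing events. The mice were C57BL/6. The infarcted group was the remote area of the heart, away from the infarct, of 2 mice 7 days after the left anterior descending coronary artery had been tied off permanently. The uninjured group was heart tissue of 2 mice without an infarct. Its samples carry the same tissue label, are titled WT and are marked as day 7 like the infarcted ones. The labels give neither the age nor the sex of the mice, and do not say whether the uninjured mice had a sham operation.

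RBFOX proteins bind GCAUG in the introns beside an exon, MBNL proteins bind YGCY motifs and CELF proteins bind GU-rich stretches. For RBFOX and MBNL proteins the position of binding relative to the exon decides whether the exon is kept or skipped. In the heart, MBNL activity rises and CELF activity falls around birth, which moves many transcripts from fetal to adult exons. RBM20 is the main repressor of titin exons in cardiomyocytes, RBM24 and RBM38 are close relatives with a single RNA recognition motif, and RBPMS sets exons of smooth muscle and cardiomyocytes. Several of these genes carry alternative exons of their own that change what the protein does.

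Among the exons whose inclusion differed most between the groups' means were short ones of the RBFOX and MBNL genes, and relatives share them. RBFOX genes have a 43-nt exon used in muscle and a 40-nt exon used in brain and other tissues, both near the 3′ end of the coding region and used as alternatives to each other. The first pair below shows the 43-nt exon, at chr16:7369801-7369843 on the plus strand for Rbfox1 and chr15:77091812-77091854 on the minus strand for Rbfox2 in GRCm38. Capitals mark the bases at which the relatives differ, 16 of 43.

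Rbfox1 43-nt exon: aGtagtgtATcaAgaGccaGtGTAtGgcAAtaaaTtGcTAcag

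Rbfox2 43-nt exon: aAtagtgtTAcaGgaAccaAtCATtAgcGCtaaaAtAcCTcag

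The 40-nt exon of Rbfox2 lies at chr15:77094451-77094490 on the minus strand, and is printed without capitals because no relative is set beside it.

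Rbfox2 40-nt exon: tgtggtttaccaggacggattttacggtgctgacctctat

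The 95-nt exon of the MBNL genes encodes part of the C-terminal region and is shown because its inclusion is compared in Mbnl1 and Mbnl2. It lies at chr3:60622146-60622240 for Mbnl1 and chr14:120404638-120404732 for Mbnl2, both on the plus strand. Capitals again mark the differing bases, 14 of 95, which leaves 85.3% identity.

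Mbnl1 95-nt exon: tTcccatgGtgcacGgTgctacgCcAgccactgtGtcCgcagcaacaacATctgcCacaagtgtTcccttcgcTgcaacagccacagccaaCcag

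Mbnl2 95-nt exon: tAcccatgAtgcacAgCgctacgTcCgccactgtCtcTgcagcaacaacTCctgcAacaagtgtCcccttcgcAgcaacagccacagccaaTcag

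These sequences are from GENCODE M21. Each exon of the events table, which is on mm9, was found in that annotation by its length and its distances to the neighbouring splice sites, and not by converting coordinates. None of the 43-nt, 40-nt and 95-nt exons has a length that is a multiple of 3, so including or skipping one by itself shifts the reading frame of what follows. Exchanging the 43-nt for the 40-nt exon keeps the frame, because these lengths differ by 3 nt.

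Of the 10 regulators, 2 were lower in the infarcted libraries and 0 were higher by edgeR's quasi-likelihood test at a Benjamini-Hochberg adjusted p below 0.05. Over all 13905 genes tested, 33.0% were called, 18.3% higher and 14.6% lower. The 2 in 10 are below the share called in either direction and slightly above the share called lower. A list of 10 is too short to set them apart from either share. The genes that fell were Rbfox1 and Rbm38. For 6 of the 10 regulators both infarcted libraries lay on the same side of both uninjured ones, as they did for 70.0% of all genes. The median log2 fold change of the 10 was -0.01, beside 0.02 over all genes. In whole tissue, fewer cells of a type and less RNA per cell cannot be told apart. All levels below are CPM, counts scaled to a common library total with TMM factors, which correct that total for a few very abundant genes. All fold changes are infarcted over uninjured.

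**Figure D1:**
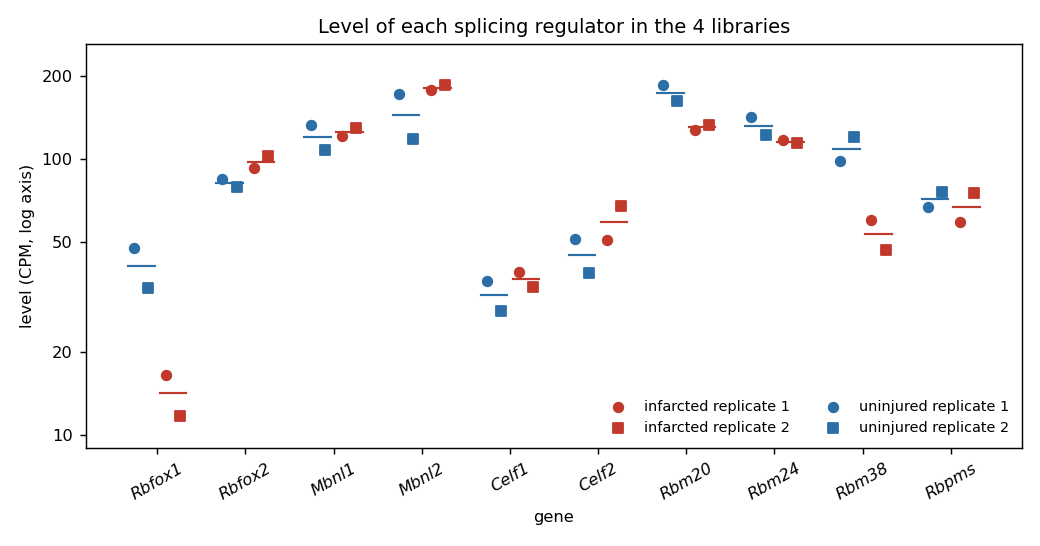
Level of the 10 regulators in CPM on a log axis, 1 point per library, blue for uninjured and red for infarcted hearts, with a short line at each group's mean of 2 libraries. Rbfox1 and Rbm38 show the widest separation, with infarcted libraries at 11.8 to 16.6 and 46.8 to 59.9 CPM against 34.15 to 47.5 and 98.2 to 119.5 CPM.

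Rbfox1, the RBFOX gene of neurons and striated muscle (chr16:5885355-7411526, plus strand, GRCm38), had 16.6 and 11.8 CPM in infarcted replicates 1 and 2 and 47.5 and 34.15 CPM in uninjured replicates 1 and 2. Both infarcted libraries lay well below both uninjured ones, which themselves differed less than the groups did. Rbfox1 fell by 1.52 ± 0.23 on the log2 scale (SE, n = 2 per group), 2.87-fold, with an edgeR adjusted p of 0.000497. Its deposited counts were 830 and 495 against 2275 and 2144 reads. Without uninjured replicate 2 the fold change was -1.75 but the edgeR adjusted p was 0.0550, while DESeq2 on the same 3 libraries still called it.

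Rbfox2, the more widely expressed relative (chr15:77078990-77307004, minus strand), had 92.3 and 102.7 CPM in infarcted and 84.2 and 79.1 CPM in uninjured libraries. The groups did not overlap, with the infarcted libraries higher, yet the difference of 0.26 ± 0.19 (log2 ± SE, n = 2 per group) did not pass edgeR's test, at an adjusted p of 0.315. Because both RBFOX genes are read from the same library, their ratio does not depend on how libraries are scaled. It can still depend on transcript length. With the trend of fold change against transcript length removed, the log2 fold changes were 0.04 for Rbfox2 and -1.49 for Rbfox1. The log2 ratio of Rbfox2 over Rbfox1 CPM was 2.48 and 3.12 in infarcted and 0.83 and 1.21 in uninjured libraries. The ratio was thus higher in both infarcted libraries, by 1.78 on average or 3.43-fold. The exact two-sided permutation test gave p = 0.333, which is the smallest p that 2 against 2 libraries allow.

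**Figure D2:**
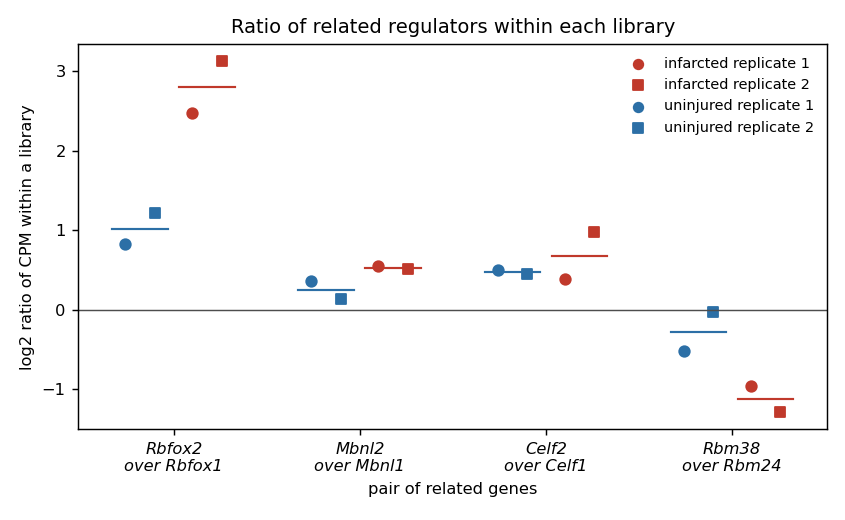
Log2 ratio of the CPM of 2 related regulators within each library, uninjured in blue and infarcted in red, with a line at each group's mean of 2 libraries. Rbfox2 over Rbfox1 moved from a mean of 1.02 in uninjured to 2.80 in infarcted libraries and Rbm38 over Rbm24 from -0.27 to -1.12, whereas the Celf2 over Celf1 ratios overlapped.

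Divided by the length of each gene's longest transcript, Rbfox1 made up 56.0% and 49.3% of the RBFOX level in the uninjured libraries and 28.9% and 20.6% in the infarcted ones. Rbfox1 and Rbfox2 were thus at like levels per length in uninjured hearts, and Rbfox2 was the larger part in both infarcted ones. The remaining RBFOX gene, the neuronal Rbfox3, had at most 0.04 CPM and was too low to test.

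Mbnl1 (chr3:60472830-60629750, plus strand), an MBNL gene of adult muscle, had 121.1 and 129.5 CPM in infarcted and 132.7 and 107.3 CPM in uninjured libraries. The groups overlapped, with a log2 fold change of 0.06 ± 0.20. Mbnl2 (chr14:120275669-120431697, plus strand) had 176.9 and 184.4 CPM in infarcted and 171.0 and 118.1 CPM in uninjured libraries. Uninjured replicate 2 was the low library, and the difference of 0.32 ± 0.22 did not pass edgeR's test, at an adjusted p of 0.282. An antisense gene, Gm26679, shares 86 nt with Mbnl2, and without strand information its reads cannot be told apart from those of Mbnl2. Mbnl3, the MBNL gene of regenerating muscle, stayed at or below 0.146 CPM. The log2 ratio of Mbnl2 over Mbnl1 was 0.55 and 0.51 in infarcted and 0.37 and 0.14 in uninjured libraries.

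Celf1 (chr2:90940382-91019497, plus strand), whose protein opposes MBNL1 at many exons, had 39.0 and 34.3 CPM in infarcted and 36.1 and 28.25 CPM in uninjured libraries. Celf2 (chr2:6539694-7509563, minus strand) had 50.75 and 67.6 CPM in infarcted and 51.1 and 38.5 CPM in uninjured libraries. Both genes overlapped between the groups and did not pass edgeR's test, with log2 fold changes of 0.19 ± 0.20 and 0.40 ± 0.21 and adjusted p-values of 0.501 and 0.164. Infarcted replicate 2 was the highest library for Celf2, and its log2 ratio of Celf2 over Celf1 was 0.98 beside 0.38, 0.50 and 0.45 in the others. Celf2 shares 1961 nt with the opposite-strand Gm26565. Of the other CELF genes, Celf4 was called higher, at 0.780 and 1.88 CPM in infarcted against 0.501 and 0.366 CPM in uninjured libraries. That was a log2 fold change of 1.61 ± 0.50 with an edgeR adjusted p of 0.0239, at levels far below those of Celf1 and Celf2. The call was lost without infarcted replicate 2 (0.83, adjusted p = 0.316), without uninjured replicate 1 (1.84, adjusted p = 0.147) and without uninjured replicate 2 (1.39, adjusted p = 0.290) by edgeR, and with limma-voom (adjusted p = 0.0582), and it held in 9 of 17 alternatives. Celf5 had 0.740 and 0.453 against 0.376 and 0.303 CPM and did not pass (adjusted p = 0.214, edgeR), and Celf3 and Celf6 were too low to test.

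Rbm20 (chr19:53677306-53867080, plus strand), mutated in an inherited dilated cardiomyopathy, had 127.2 and 132.4 CPM in infarcted and 185.4 and 161.5 CPM in uninjured libraries. Both infarcted libraries were lower, by -0.42 ± 0.20 on the log2 scale, but the edgeR adjusted p was 0.120 (0.0518 unadjusted). With the trend of fold change against transcript length removed, the value was -0.54 and passed the test, at an adjusted p of 0.0291. With library totals alone as the scale it was -0.07, at an adjusted p of 0.816.

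Rbm38 (chr2:173020498-173034734, plus strand), a target gene of p53 that also takes part in muscle differentiation, had 59.9 and 46.75 CPM in infarcted and 98.2 and 119.5 CPM in uninjured libraries. The highest infarcted library was below the lowest uninjured one. Rbm38 fell by 1.03 ± 0.20 on the log2 scale (SE, n = 2 per group), 2.04-fold, with an edgeR adjusted p of 0.00230. Without uninjured replicate 2 the fold change was -0.89 and the edgeR adjusted p 0.0810, while DESeq2 called it there too. Its exons share 384 nt with opposite-strand genes, Gm20490 and Gm14453.

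Rbm24 (chr13:46418434-46431095, plus strand), needed for sarcomere assembly in the heart, had 116.8 and 113.8 CPM in infarcted and 141.1 and 121.8 CPM in uninjured libraries. Its groups did not overlap either, but by -0.19 ± 0.19 (log2 ± SE) they differed less than the test could call, at an edgeR adjusted p of 0.484. The log2 ratio of Rbm38 over Rbm24 was -0.96 and -1.28 in infarcted and -0.52 and -0.03 in uninjured libraries. The mean ratio was 1.80-fold lower in the infarcted libraries, and the exact two-sided permutation p was again 0.333, the smallest possible.

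Rbpms (chr8:33782643-33929863, minus strand) had 59.25 and 74.9 CPM in infarcted and 67.0 and 75.8 CPM in uninjured libraries. The groups overlapped almost fully, at -0.09 ± 0.19 (log2 ± SE). Its relative Rbpms2, a gene of cardiomyocytes and smooth muscle, had 30.2 and 29.7 against 34.7 and 41.3 CPM, a difference of -0.35 ± 0.19 that did not pass edgeR's test (adjusted p = 0.178).

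**Figure D3:**
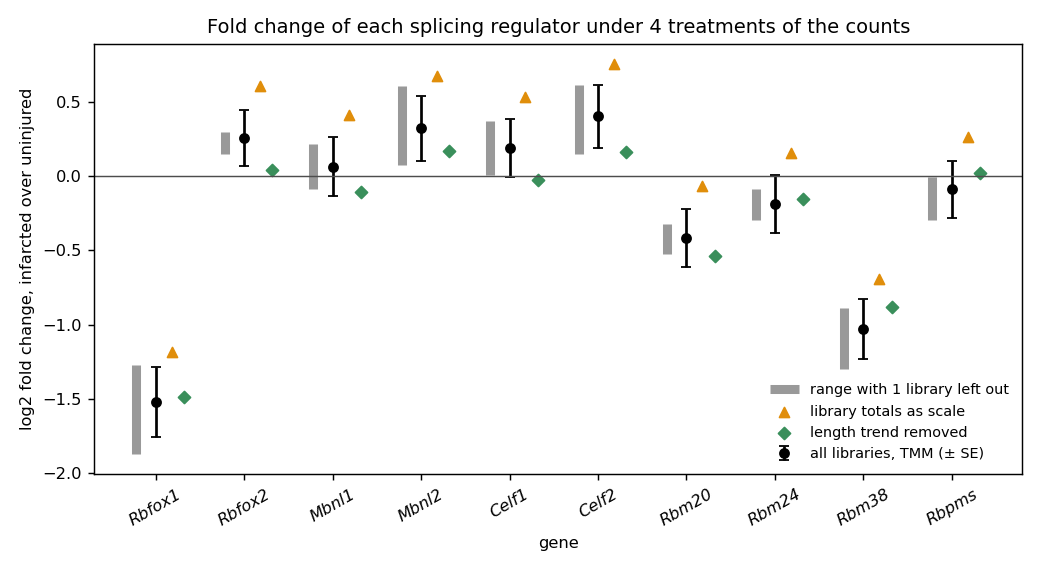
Log2 fold change of each regulator, infarcted over uninjured: black points with the SE for all libraries, grey bars for the range of the edgeR fits that leave out 1 library, orange triangles for library totals as the scale and green diamonds with the length trend removed. Rbfox1 and Rbm38 lie below 0 under every setting drawn, between -1.87 and -1.18 and between -1.30 and -0.69.

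The choice of scale mattered for the small differences. With library totals alone the median log2 fold change of all genes moved from 0.02 to 0.36, and Rbfox2 (0.61), Mbnl2 (0.67) and Celf2 (0.76) were then called higher by edgeR, when 31.5% of all genes were called higher and 5.65% lower. Rbfox1 and Rbm38 were still called lower on that scale, at -1.18 and -0.69. The sign of Rbm24 and Rbpms turned positive there, and that of Mbnl1 and Celf1 turned negative when the length trend was removed.

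Per kilobase of the longest transcript, the order of the regulators differed between the groups mainly for Rbm38, Mbnl2 and Rbfox1. In uninjured hearts Rbm38 came first at 47.7 ± 6.59 CPM per kb (SD, n = 2), followed by Rbm24 at 42.6 ± 4.42, and the libraries of this pair overlapped. Rbm20 at 35.5 ± 3.45, Rbpms at 28.04 ± 2.45, Mbnl2 at 25.99 ± 6.73 and Mbnl1 at 21.2 ± 3.18 CPM per kb came next. Within that run Rbpms could not be separated from Mbnl2, nor Mbnl2 from Mbnl1. Rbfox1 (13.3 ± 3.08) and Rbfox2 (11.8 ± 0.527 CPM per kb) overlapped as well, and Celf2 (5.06 ± 1.01) and Celf1 (4.10 ± 0.709 CPM per kb), which also overlapped, were lowest. In infarcted hearts Rbm24 was first at 37.4 ± 0.687 and Mbnl2 next at 32.5 ± 0.954 CPM per kb, above Rbm20 at 26.5 ± 0.752 with no overlap. Rbm38 was down at 23.4 ± 4.07 CPM per kb, overlapping Rbpms and Mbnl1, and Rbfox1 stood last at 4.64 ± 1.11 CPM per kb, overlapping Celf1. These orders depend on the length used. With the union of all exons as the length, Mbnl1, Celf2 and Rbpms, whose annotated exons are far longer in sum than any 1 transcript, moved down in both groups. In infarcted hearts Mbnl2 then stood below Rbm20 and Rbm38, at 15.06 against 19.12 and 18.58 CPM per kb.

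The events table gave the regulators' own splicing. Counted once per exon or splice site, 93 events lay in the regulators, and 42 had at least 10 reads in each library and at least 5 reads for each form. Rbm38 had none. The edgeR test of inclusion against exclusion reads called 0 of the 42 at an adjusted p below 0.05, with 3 at an unadjusted p below 0.05. The limma test on the logit also called 0, with 2 at an unadjusted p below 0.05. Neither test called any of the 8581 events tested (0.0%), and 6.47% of them by edgeR and 7.64% by limma had an unadjusted p below 0.05. Groups did not overlap for 22 of the 42 events (52.4%), against 38.1% of all, and 6 of the 42 (14.3%) did so with a difference of at least 10 percentage points, against 11.7% of all. The percentages that follow are therefore descriptions of the 4 libraries.

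**Figure D4:**
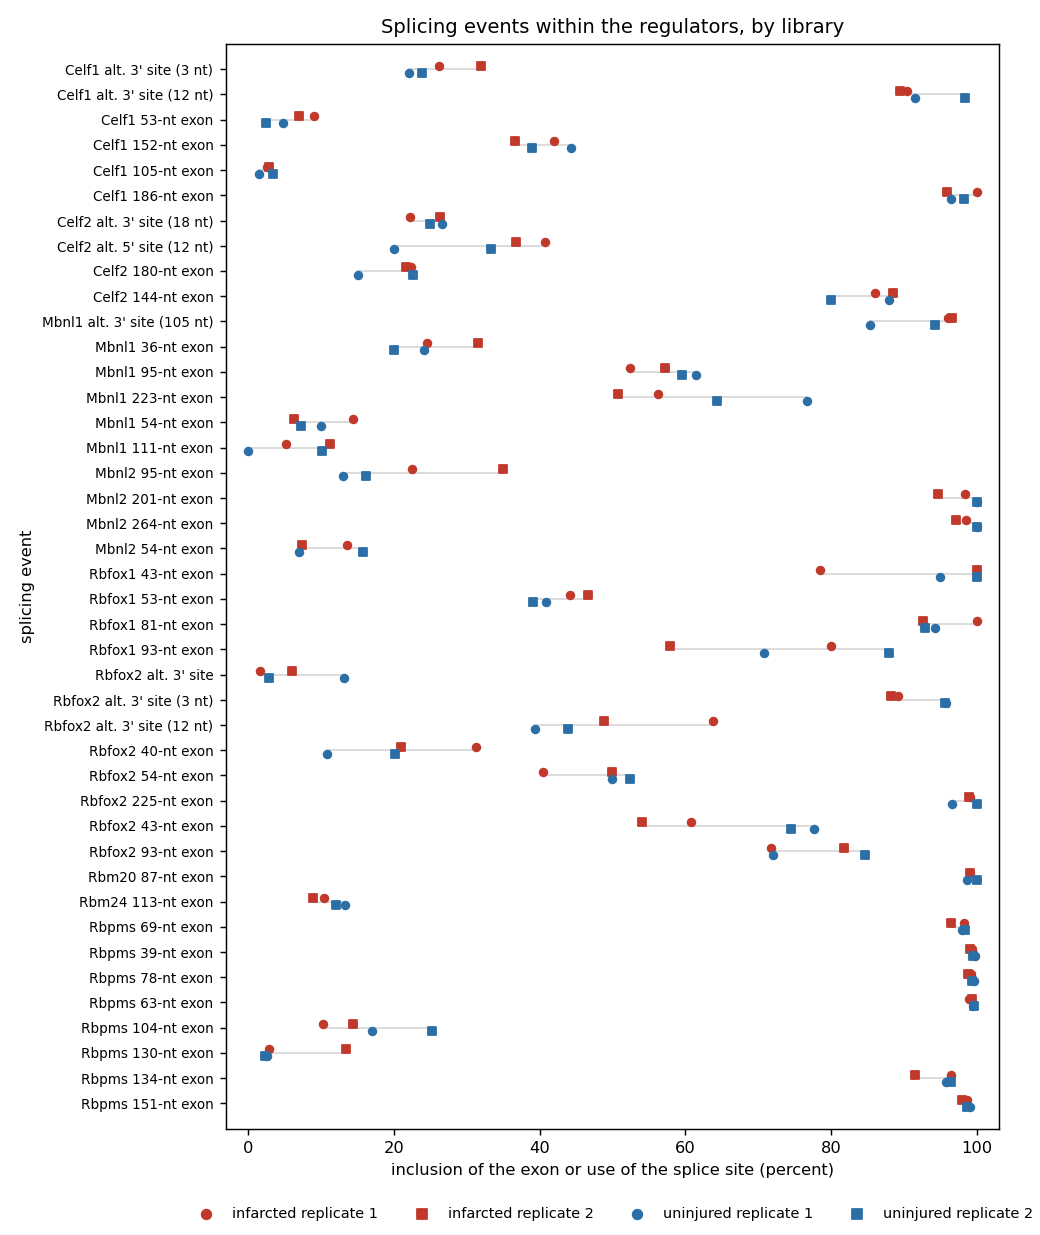
Inclusion of each exon, or use of each splice site, in percent for the 42 tested events of the regulators, with infarcted libraries in red and uninjured libraries in blue. The Rbfox2 43-nt exon lies at 54.05% to 60.8% in infarcted and 74.45% to 77.6% in uninjured libraries, and most Rbpms exons and the Rbm20 exon lie close to 100% in all libraries.

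The 43-nt muscle exon of Rbfox2 (mm9 chr15:76922242-76922284), printed above, was included in 60.8% and 54.05% of transcripts in infarcted and 77.6% and 74.45% in uninjured libraries. Both infarcted libraries were lower, with a mean difference of -18.6 points. It was covered by 65 to 85 corrected reads per library, and the edgeR p was 0.0463 unadjusted and 0.756 adjusted. With each library left out in turn, the difference ranged from -22.0 to -15.2 points and the unadjusted edgeR p from 0.0518 to 0.135.

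The alternative 40-nt exon of Rbfox2 (mm9 chr15:76924881-76924920) lay the other way, at 31.25% and 20.96% in infarcted against 10.8% and 20.2% in uninjured libraries. Uninjured replicate 2 was close to infarcted replicate 2, and the mean difference of 10.6 points had an unadjusted edgeR p of 0.226 (0.849 adjusted). With each library left out in turn it ranged from 5.45 points, without infarcted replicate 1, to 15.7 points. The reads of the 40-nt and 43-nt exons are counted over shared neighbouring exons, so the pair is not independent.

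In Rbfox1 the same muscle exon was at 78.45% and 100% in infarcted and 95.0% and 100% in uninjured libraries. Infarcted replicate 1, with 17 reads, was the lowest library and uninjured replicate 1 the next, and the exon was covered by 12 to 41 reads per library. The 93-nt exon, which encodes part of the RNA recognition motif and whose skipping is known to give a protein that cannot bind RNA, was at 80% and 57.9% against 70.7% and 87.9% in Rbfox1. In Rbfox2 it was at 71.8% and 81.8% against 72.1% and 84.6%. The groups overlapped in both genes at this exon, and at 15 to 35 reads per library in Rbfox1 small differences were not detectable. The 53-nt exon of Rbfox1 was at 44.2% and 46.7% against 40.85% and 39.1%, and its 81-nt exon at 92.6% to 100%. In Rbfox2 a 54-nt exon was at 40.5% and 50% against 50% and 52.4%, and a 225-nt exon at 96.6% to 100%.

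Of the 3 tested 3′ splice sites of Rbfox2, the groups did not overlap at 2. A 3′ splice site that differs by 3 nt from its neighbour was used in 89.2% and 88.3% of infarcted and 95.7% and 95.65% of uninjured transcripts, with an unadjusted edgeR p of 0.0464 and an adjusted p of 0.756. Replicates differed by under 1 point at this site and the group means by -6.95 points. Another 3′ site, which differs by 12 nt, was used in 63.8% and 48.8% against 39.4% and 43.9%, with 33 to 58 reads per library. Its mean difference of 14.6 points was 7.14 points without infarcted replicate 1. The remaining site was used in 1.65% and 6.08% against 13.2% and 2.95%, and the groups overlapped.

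The 95-nt exon of Mbnl2 (mm9 chr14:120803860-120803954) was included at 22.5% and 35.0% in infarcted and 13.0% and 16.1% in uninjured libraries. Both infarcted libraries were higher, by 14.2 points on average, with 72 to 169 reads per library and an edgeR p of 0.0619 unadjusted and 0.767 adjusted. With each library left out in turn the difference ranged from 7.89 to 20.4 points, lowest without infarcted replicate 2. The matching exon of Mbnl1 was included far more often and leaned the other way, at 52.5% and 57.3% in infarcted against 61.5% and 59.5% in uninjured libraries, a difference of -5.62 points with an unadjusted edgeR p of 0.520.

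The 54-nt exon of the MBNL genes, which MBNL protein itself represses and which directs the protein to the nucleus, was mostly skipped. It was at 14.5% and 6.31% in infarcted and 10.1% and 7.25% in uninjured libraries in Mbnl1. In Mbnl2 it was at 13.6% and 7.35% against 7.02% and 15.8%. Infarcted and uninjured libraries overlapped in both genes.

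Of the other MBNL events, the 223-nt exon of Mbnl1 (mm9 chr3:60332678-60332900), which was not matched to an annotated exon, was at 56.25% and 50.8% in infarcted and 76.7% and 64.3% in uninjured libraries, with 23 to 50 reads and an unadjusted edgeR p of 0.0937. A 201-nt coding exon of Mbnl2 was included in every read of both uninjured libraries and in 98.4% and 94.7% in the infarcted ones, and had the smallest unadjusted edgeR p of the 42 events, 0.0288 (0.752 adjusted). The 264-nt exon of Mbnl2 was similar, at 98.5% and 97.1% against 100% in both uninjured libraries, with an unadjusted p of 0.0502 by edgeR and 0.0225 by limma. The differences of -3.43 and -2.22 points rest on few skipping reads in the infarcted libraries. In Mbnl1 a 36-nt exon was at 24.5% and 31.55% against 24.1% and 20.1%, a 111-nt exon at 5.17% and 11.3% against 0% and 10.2%, and a 3′ splice site differing by 105 nt at 96% and 96.55% against 85.3% and 94.3%. None of these had an unadjusted edgeR p below 0.05.

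In the CELF genes no event had an unadjusted edgeR p below 0.05. The largest difference was a 5′ splice site of Celf2 that differs by 12 nt, used in 40.7% and 36.8% in infarcted and 20% and 33.3% in uninjured libraries. It was covered by 12 to 27 reads only, and the unadjusted edgeR p was 0.320. It was 5.46 points without uninjured replicate 1, against 12.1 points with all libraries. A 152-nt exon of Celf1 lay between 36.7% and 44.3% in all 4 libraries, a 105-nt exon between 1.49% and 3.37%, and a 186-nt exon between 95.96% and 100%. Groups did not overlap at the 53-nt exon of Celf1, at 9.09% and 6.98% against 4.76% and 2.44%, nor at its 3′ sites differing by 3 nt (26.2% and 32% against 22.1% and 23.9%) and 12 nt (90.5% and 89.5% against 91.5% and 98.4%). In Celf2 the 180-nt exon was at 15.15% to 22.6%, the 144-nt exon at 80% to 88.5% and a 3′ site differing by 18 nt at 22.2% to 26.7%, and the groups overlapped at each.

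Rbm20 and Rbm24 had 1 tested exon each. The 87-nt exon of Rbm20 was included at 98.7% to 100% in every library. The 113-nt exon of Rbm24, annotated only in noncoding transcripts, was at 10.4% and 8.98% in infarcted and 13.3% and 12.0% in uninjured libraries. The groups did not overlap, but the difference was -2.97 points, and the unadjusted edgeR p was 0.393.

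Rbpms had 8 tested exons. Its 104-nt exon was included at 10.3% and 14.4% in infarcted and 17.0% and 25.3% in uninjured libraries, with at least 246 reads per library and an unadjusted edgeR p of 0.0913. Its mean difference of -8.79 points was -4.62 points without uninjured replicate 2. The 130-nt exon stood out in 1 library only, at 13.5% in infarcted replicate 2 and between 2.35% and 2.91% in the others. The other 6 exons, of 39, 63, 69, 78, 134 and 151 nt, were included at 91.5% or more in every library.

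Around these 10, a wider set of 46 splicing regulators and kinases of splicing factors was listed, of which Rbm4 was not matched and 35 were tested. The edgeR test called 6 of the 35 higher and 5 lower, shares near those of all genes, 18.3% higher and 14.6% lower. Fewer of them were called lower whichever library was left out, and fewer of all genes were called lower in those fits as well. Without uninjured replicate 2 the list lost all its edgeR calls, and nearly all other genes lost theirs too. With library totals as the scale only Srrm4 stayed among the lower calls, and 9 were higher. Over 18 alternatives Ptbp1 and Rbms3 kept their call in 17, Ptbp3, Fmr1 and Srrm4 in 15, Rbms1 and Khdrbs3 in 13, Fxr2 and Srpk3 in 11 and Raver2 in 10.

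**Figure D5:**
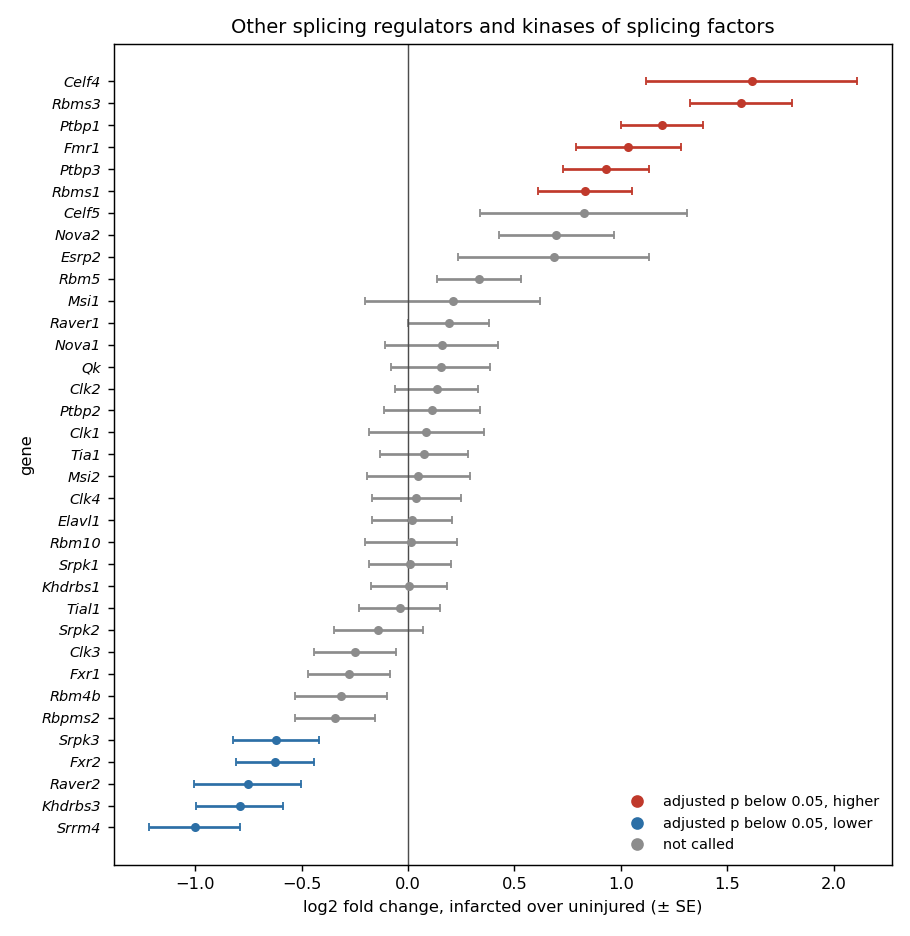
Log2 fold change with SE, infarcted over uninjured, of the 35 other splicing regulators and kinases tested, 1 row per gene, red where called higher, blue where called lower and grey where not called. Celf4, Rbms3 and Ptbp1 had the highest values (1.61, 1.57 and 1.19; without infarcted replicate 2 they are 0.83, not called, 1.36 and 1.32) and Srrm4 the lowest (-1.003).

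Ptbp1, the polypyrimidine tract-binding protein that represses muscle and neuronal exons, had 89.15 and 71.3 CPM in infarcted and 36.9 and 33.3 CPM in uninjured libraries. It rose by 1.19 ± 0.19 (log2 ± SE), with an edgeR adjusted p of 0.000642. Its relative Ptbp3 rose by 0.93 ± 0.20, from 33.1 and 24.8 to 58.7 and 51.7 CPM (adjusted p = 0.00369, edgeR), while Ptbp2 did not pass (0.11 ± 0.23). Rbms3 and Rbms1, which bind single-stranded nucleic acid, rose by 1.57 ± 0.24 and 0.83 ± 0.22, and Fmr1, the fragile X protein, rose by 1.04 ± 0.25.

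Among the lower genes, Srrm4, known as the regulator of neuronal microexons, had 12.3 and 9.39 CPM in infarcted against 23.7 and 19.9 CPM in uninjured libraries and fell by 1.003 ± 0.21 (edgeR adjusted p = 0.00346). Khdrbs3, a STAR-family RNA-binding protein, fell by 0.79 ± 0.20, and Raver2, a cofactor of PTB proteins, by 0.75 ± 0.25. Fxr2, a relative of Fmr1, fell by 0.63 ± 0.19 and Srpk3, the SR protein kinase of striated muscle, by 0.62 ± 0.20. Srpk1 and Srpk2, the related kinases found in most tissues, differed by 0.01 and -0.14 and were not called.

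Exons of genes that these regulators are known to act on were also read. The 41 target genes outside the 10 held 190 tested events in 36 genes, and for 48 of them (25.3%) the groups did not overlap with a difference of at least 10 points, beside 11.7% of all events. None passed an adjusted p below 0.05 by edgeR or limma. An unadjusted edgeR p below 0.05 was found for 33 (17.4%), beside 6.47% of all events. Many of these events are neighbouring exons of 1 gene and share reads. The target genes were also listed with earlier results of these data known, so these shares are descriptions and no test of the targets. Target genes of RBM20 gave 34 of 111 such events, those of RBFOX 7 of 37, CELF 5 of 13, RBM24 5 of 17, RBPMS 2 of 8 and MBNL 0 of 29, again without the 10 regulators' own exons. The lists share genes, and a target of 1 family can be set by others.

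The 24-nt exon of Mef2a, a target of CELF and RBFOX proteins in a cardiac transcription factor, had the largest difference among target events with at least 20 reads in every library and no overlap between groups, at 43.25% and 37.6% in infarcted against 68.8% and 74.0% in uninjured libraries. Its unadjusted edgeR p was 0.00748 and its adjusted p 0.752. A 66-nt exon of Lrrfip1, an RBM20 target, was at 37.5% and 32.02% against 62.3% and 54.2%. A 51-nt exon of the same gene was at 42.9% and 49.35% against 69.0% and 65.5%, and a 78-nt exon of titin (Ttn) at 65.5% and 90.9% against 44.8% and 63.6%. The titin exon had 24 and 21 reads in the infarcted libraries, and its unadjusted edgeR p was 0.106. Its mean difference of 23.98 points was 11.285 points without infarcted replicate 2. Actn1, an RBPMS target, has an 81-nt and a 66-nt exon used as alternatives, whose differences had opposite signs. The 81-nt exon was at 50% and 37.9% against 23.5% and 21.35%, and the 66-nt exon at 45.1% and 57.25% against 71.0% and 72.8%.

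The libraries held 35715115 to 70885393 counts, 36.7% to 48.4% of them from mitochondrially encoded genes, and the common biological coefficient of variation was 19.3%. The defining markers of cardiomyocytes were present in all libraries, with summed levels of 28066 to 29329.7 CPM in infarcted and 38923 to 45767 CPM in uninjured ones, and 2 of the 8 markers were called lower. Fibroblast markers summed to 5706 to 6622 CPM against 801 to 819 CPM, with 4 of 7 called higher. The collagens Col1a1, Col1a2 and Col3a1 made up most of the infarcted sums, with log2 fold changes of 4.28, 3.86 and 3.90. Lum was also called, at 1.76, whereas Pdgfra, Dcn and Tcf21 were not, at 0.63, 0.66 and 0.31. Macrophage markers summed to 289 to 308 CPM against 90.7 to 112 CPM, with 6 of 6 higher. Endothelial markers, at 681 to 855 against 599.5 to 651 CPM, had 0 of 4 called. Atrial markers summed to 2009.7 CPM in infarcted replicate 2, beside 295 CPM in infarcted replicate 1 and 49.5 to 88.8 CPM in the uninjured libraries, with 0 of 3 tested markers called. Nppa made up most of each sum, at 1456 CPM in infarcted replicate 2, 293.7 CPM in infarcted replicate 1 and 86.87 and 46.67 CPM in the uninjured libraries. Myl4, Myl7, Sln and Mybphl were at 360.5, 131.7, 34.74 and 26.77 CPM in infarcted replicate 2. In every other library each was at or below 2.437 CPM. No marker of these lists was at 0 in every library. The part of these cell types in the levels and exons of the splicing regulators was not tested. Without infarcted replicate 2, the library with the atrial markers, the log2 fold change was -1.33 for Rbfox1 and -0.89 for Rbm38. With all libraries it was -1.52 and -1.03. The fit without that library rests on 1 infarcted library, and a part of atrial tissue in either fall was not tested.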

How the data were processed

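Polyadenylated RNA from heart tissue was sequenced as single-end reads of 50 bp, per the labels' protocols. The authors deposited raw counts per Ensembl gene, not normalized, and a table of the percent inclusion of splicing events with corrected inclusion and exclusion read counts whose coordinates are on mm9 (per the submitters' processing notes). No aligner, counter, event caller or strand setting is named in the labels or file headers. Symbols came from GENCODE M21 and matched 20450 of 21552 genes. The 10 members, the other gene lists and the tests were chosen with earlier results of these data known.

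Counts were tested over all genes with edgeR 4.0.16 in R 4.3.3 (TMM, filterByExpr, robust quasi-likelihood F-test, Benjamini-Hochberg adjustment), with SE taken as the absolute log2 fold change over the square root of F. Events were tested as a form-by-group interaction on rounded reads in edgeR, with a term for each library, and with limma 3.58.1 on the logit with 0.5 reads added. Where a splice site is listed as 2 forms, 1 was kept. Both scripts were tested on simulated data. The simulated splicing changes were placed only in well-covered events of intermediate inclusion, so events with few reads or near full inclusion or full skipping were not covered. Groups came from the labels, which describe 2 mice each, and there were 13905 genes and 8581 events to test. The alternatives were other scaling factors, filters, DESeq2 1.42.0, limma-voom, a length-trend correction, a replicate block, at least 20 reads per event and each library left out. DESeq2 with a library left out, the limma test with at least 20 reads and the exon-union length were added after seeing the data. Named were all members and their tested events, other listed regulators that are relatives of a member or were called, and the 6 target events with the largest differences among those with at least 20 reads per library and no overlap.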

Additional observations from a re-analysis of the deposited data

How the results depend on the processing

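Rbfox1 and Rbm38 were called lower in 17 of 18 alternatives each, the exception being the edgeR fit without uninjured replicate 2, and were below 0 in all 18. Without that library edgeR called 0.77% of all genes and DESeq2 12.3%. The number of regulators called lower ranged from 0 to 2 with 1 library left out, and the number called higher was 0 by edgeR and 0 to 1 by DESeq2, which called Mbnl2 without uninjured replicate 1. With library totals as the scale 3 were higher and 2 lower. For the other listed regulators, leaving out 1 library gave 0 to 6 higher and 0 to 3 lower by edgeR, and 2 to 5 higher and 0 to 4 lower by DESeq2. With library totals as the scale 1 of them was lower. The cause of these differences was not tested. With the replicate number as a block, 0 regulators were higher and 2 lower. Of the other listed regulators 7 were higher and 5 lower, beside 21.2% and 16.8% of all genes. The deviations of same-numbered libraries correlated at 0.111, and nothing in the labels pairs them. No event was called by edgeR in any setting run. With 2 mice per group and 12 to 41 reads per library at exons such as the 43-nt exon of Rbfox1, small differences in inclusion were not detectable.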
